A study of Mus musculus with 4 samples.

Results

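The genes of 4 tissue inhibitors of metalloproteinases (*Timp1*, *Timp2*, *Timp3* and *Timp4*) and of 6 matrix metalloproteinases (*Mmp2*, *Mmp3*, *Mmp9*, *Mmp10*, *Mmp13* and *Mmp14*) were followed in primary mouse astrocytes that lacked or carried the CREB coactivator CRTC3. These 10 genes were taken by name out of the 22180 genes measured, and each had 1 probe set assigned to it alone. The cells came from the cerebral cortex of C57BL/6J pups at postnatal days 1 to 3. Mixed glia were grown and then shaken to remove floating microglia, and the attached layer was used. Each of 4 conditions was measured on 1 whole-transcript array: CRTC3 KO cells exposed to 25 µM forskolin (FSK) for 2 h, CRTC3 KO cells with vehicle (0.1% DMSO), WT cells with the same FSK exposure, and WT cells with the same vehicle. The knockout was systemic, so every cell type in the dish lacked CRTC3. How long the vehicle was applied, and whether pups or cultures were pooled, is not stated. With 1 array per condition there was no replicate check and no test, and each comparison below is a difference between single arrays.

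Matrix metalloproteinases (MMPs) are zinc-dependent proteases that cleave collagens, laminins, proteoglycans and other matrix proteins, and most are made as inactive proenzymes. The TIMPs bind the active site of MMPs and block them, and a complex of the *Timp2* product with the membrane-anchored protease of *Mmp14* brings the *Mmp2* proenzyme to its activation at the cell surface. In the brain, *Timp1* is known for its induction in reactive astrocytes, and MMPs for remodelling of the perivascular and synaptic matrix. FSK activates adenylyl cyclase and raises cAMP, which brings the CRTC coactivators to CREB at cAMP-responsive genes, so the FSK exposure asked which genes respond to cAMP and which of these responses need CRTC3.

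All values are log2 signals as deposited. The median of the probe sets of a single gene was 5.81, which is used here as a mark of brightness, and 11993 of the 22180 genes reached it on at least 1 array. The targeted gene had a *Crtc3* signal of 5.49 with FSK and 4.92 with vehicle in CRTC3 KO cells, against 8.14 with FSK and 7.75 with vehicle in WT cells, which fits the labels. Of 10 astrocyte markers, 9 reached the median signal, as did 11 of 11 microglia and macrophage markers and 10 of 12 markers of fibroblasts and mural cells, so genes that mark cells other than the labelled astrocytes were measured in the cultures too. In a bulk culture, fewer cells of a type and less RNA per cell cannot be told apart.

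Of the 10 genes, the 4 TIMP genes, *Mmp2* and *Mmp14* lay above the median signal on all 4 arrays, while *Mmp3*, *Mmp9*, *Mmp10* and *Mmp13* lay below it on all 4. Signals of different genes come from different probes and are not ranked against each other here. Among the inhibitors, *Timp2*, whose product takes part in the activation of the *Mmp2* proenzyme, gave 11.09 (CRTC3 KO, FSK), 11.03 (CRTC3 KO, vehicle), 11.05 (WT, FSK) and 11.07 (WT, vehicle). These 4 values spanned 0.06, the smallest range of the 10 genes. *Timp3*, which encodes the inhibitor that stays bound to the matrix, gave 10.71 (CRTC3 KO, FSK), 10.70 (CRTC3 KO, vehicle), 10.79 (WT, FSK) and 11.01 (WT, vehicle), with the vehicle-treated WT array above the other 3. *Timp4* gave 6.73 (CRTC3 KO, FSK), 6.43 (CRTC3 KO, vehicle), 6.46 (WT, FSK) and 6.15 (WT, vehicle), nearer to the median than the other TIMP genes, and the FSK array was the higher in each genotype.

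*Timp1*, the cytokine-inducible inhibitor of the family, gave 8.62 (CRTC3 KO, FSK), 8.63 (CRTC3 KO, vehicle), 10.13 (WT, FSK) and 10.08 (WT, vehicle). Both CRTC3 KO arrays were low and both WT arrays were high, and within a genotype the arrays were nearly equal. *Mmp2*, the gene of gelatinase A, which cleaves denatured collagen and type IV collagen of basement membranes, gave 8.07 (CRTC3 KO, FSK), 8.04 (CRTC3 KO, vehicle), 9.46 (WT, FSK) and 9.27 (WT, vehicle). *Mmp14*, which encodes the membrane-anchored collagenase that activates the *Mmp2* proenzyme, gave 9.58 (CRTC3 KO, FSK), 9.70 (CRTC3 KO, vehicle), 10.33 (WT, FSK) and 10.31 (WT, vehicle). Both CRTC3 KO arrays thus lay below both WT arrays for *Timp1*, *Mmp2* and *Mmp14*. By smaller amounts they also did for *Timp3* and for *Mmp10*, which was below the median signal. For *Mmp13*, also below the median signal, both CRTC3 KO arrays lay above both WT arrays. The share of all genes with such an order was not counted, so the order alone does not show a genotype difference. For the last 3 genes CRTC3 KO minus WT was close to 0 with FSK, at -0.08 for *Timp3*, -0.04 for *Mmp10* and 0.03 for *Mmp13*. With vehicle it was -0.31, -0.25 and 0.37.

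The 4 dim genes moved within narrow ranges. *Mmp9*, the gene of gelatinase B, gave 5.35 (CRTC3 KO, FSK), 5.78 (CRTC3 KO, vehicle), 5.24 (WT, FSK) and 5.56 (WT, vehicle), so that it came closest to the median signal with vehicle in CRTC3 KO cells. *Mmp13*, which encodes a collagenase, lay between 5.12 and 5.49. The stromelysin genes were dimmer still, *Mmp3* between 4.19 and 4.49 and *Mmp10* between 4.41 and 4.65. Below the median signal a difference may not be detectable.

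**Figure D1:**
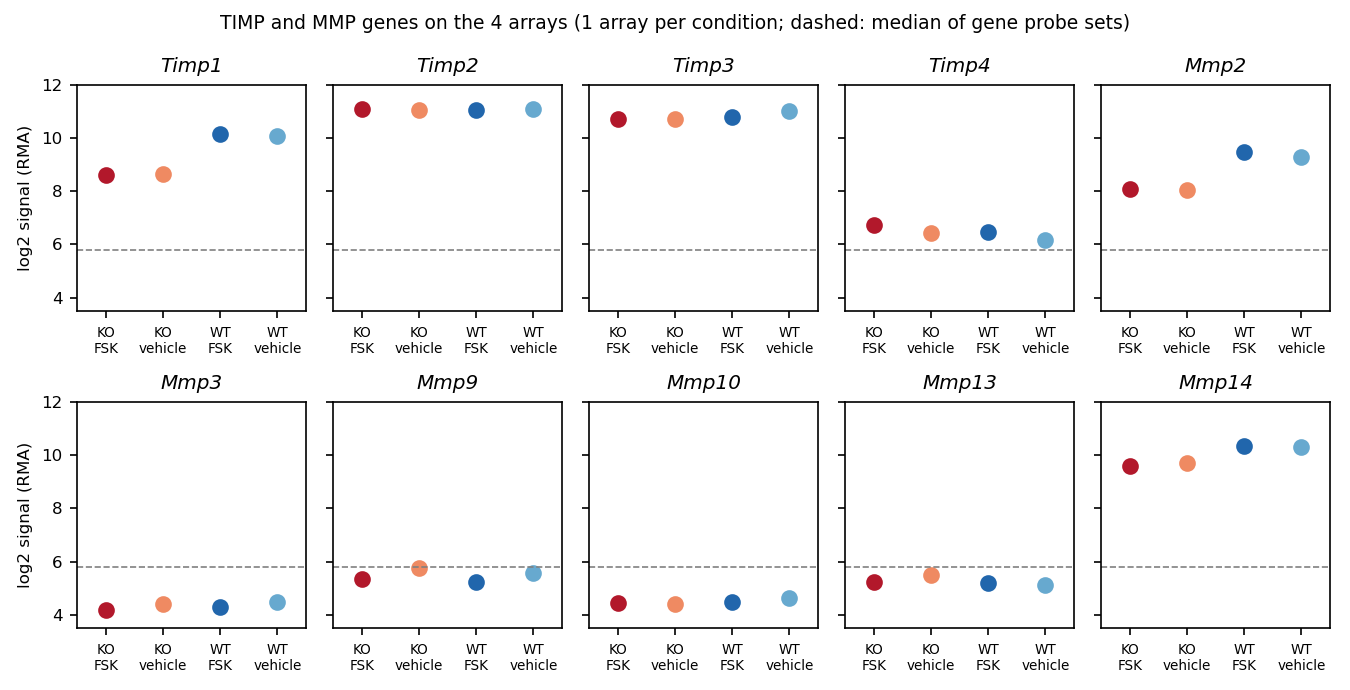
Log2 signal (vertical axis, RMA) of the 10 TIMP and MMP genes on the 4 arrays, 1 point per array and 1 panel per gene, with the median probe set signal of 5.81 dashed. *Timp1*, *Mmp2* and *Mmp14* are lower on both CRTC3 KO arrays than on both WT arrays, *Timp2* and *Timp3* stay near 11, and *Mmp3*, *Mmp9*, *Mmp10* and *Mmp13* lie under the dashed line.

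Promoter sequences are shown for 2 bright genes that were lower in CRTC3 KO cells (*Timp1* and *Mmp14*), for the steadiest gene (*Timp2*) and for the 3 dim genes that lie together on chromosome 9, so that the letters before their start sites can be set side by side. Promoters of 8 of the 10 genes were found in the RefSeq table (mouse build GRCm38.p6), and those of *Mmp2* and *Mmp9* were not. Each run holds the 100 bases before the annotated start site, 5′ to 3′ on the gene's strand. Capitals mark the letters of the AP-1 site, TGANTCA, those of the core promoter box to which the general transcription machinery binds, TATAAA, and the core of the cAMP response element (CRE), TGACG.
*Timp1* (chrX:20870066-20870165, plus strand): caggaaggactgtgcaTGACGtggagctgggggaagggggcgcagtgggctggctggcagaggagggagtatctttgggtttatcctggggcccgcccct
*Timp2* (chr11:118355412-118355511, minus strand): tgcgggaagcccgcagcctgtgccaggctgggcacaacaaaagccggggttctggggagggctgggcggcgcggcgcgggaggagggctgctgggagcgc
*Mmp14* (chr14:54431498-54431597, plus strand): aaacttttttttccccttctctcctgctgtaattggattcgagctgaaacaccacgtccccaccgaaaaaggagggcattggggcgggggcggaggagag
*Mmp3* (chr9:7445722-7445821, plus strand): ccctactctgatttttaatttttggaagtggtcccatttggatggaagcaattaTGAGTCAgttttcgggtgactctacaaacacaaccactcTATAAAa
*Mmp10* (chr9:7502242-7502341, plus strand): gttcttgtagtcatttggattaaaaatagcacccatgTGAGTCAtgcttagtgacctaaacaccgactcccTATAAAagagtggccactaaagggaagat
*Mmp13* (chr9:7272414-7272513, plus strand): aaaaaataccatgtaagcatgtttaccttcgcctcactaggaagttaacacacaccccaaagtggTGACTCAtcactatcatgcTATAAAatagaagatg

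All 3 promoters of the dim genes carried TGANTCA, as TGAGTCA beginning 46 bases before the start of *Mmp3*, as TGAGTCA 63 bases before that of *Mmp10* and as TGACTCA 35 bases before that of *Mmp13*. The same 3 carried TATAAA, beginning 7, 29 and 16 bases before the start. No other promoter of the 8 held either in its window of 300 bases (250 before the start and 50 after), searched on both strands. Of 32851 promoter windows in the table, 7.81% held TGANTCA and 13.6% held TATAAA. The full CRE, TGACGTCA, which contains the core, was in 0 of the 8 windows and in 1.79% of all windows. The core TGACG was found in *Timp1* alone, beginning 84 bases before its start, and in 20.8% of all windows. These are matches of letters and not shown sites of binding.

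None of the 10 genes responded to FSK by 1.5-fold in either genotype. Over the CRTC3 KO arrays, 1.19% of all genes differed by at least 1.5-fold between FSK and vehicle in either direction, and over the WT arrays 1.98% did, so a count of 0 among 10 genes lies close to the background. *Timp4* had the same difference in both genotypes, higher by 0.31 with FSK in CRTC3 KO cells and by 0.31 in WT cells. A difference of that size or more was seen in 2329 of the 22180 genes in CRTC3 KO cells and in 2984 in WT cells. *Mmp9* was lower with FSK, at -0.44 in CRTC3 KO cells and -0.32 in WT cells, but all its values lay below the median signal. *Mmp3* was also lower with FSK in both genotypes, at -0.24 in CRTC3 KO cells and -0.17 in WT cells, and likewise dim.

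For the genes that differed by genotype, the FSK differences were small. *Timp1* differed by -0.01 in CRTC3 KO cells and 0.05 in WT cells, *Mmp2* by 0.03 in CRTC3 KO cells and 0.18 in WT cells, and *Mmp14* by -0.12 in CRTC3 KO cells and 0.02 in WT cells. *Timp3* differed by 0.01 in CRTC3 KO cells and by -0.22 in WT cells. As a scale for these values, 1082 genes had more than 1 probe set, and the difference between probe sets of the same gene had an SD of 0.26 for the CRTC3 KO response and 0.29 for the WT response, which covers probe noise and not the spread between cultures. The differences given here, other than those of *Timp4* and *Mmp9* in both genotypes, lay within that scale.

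The response in CRTC3 KO cells minus that in WT cells compares the FSK differences of the 2 genotypes. As none of the 10 genes responded by 1.5-fold in either genotype, it cannot tell whether a response depended on CRTC3. In this value none of the 10 genes reached 1.5-fold, against 4.99% of all genes in either direction, which lies close to the background. The values ran between -0.34 for *Mmp13* and 0.23 for *Timp3*, with 0.00 for *Timp4*.

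**Figure D2:**
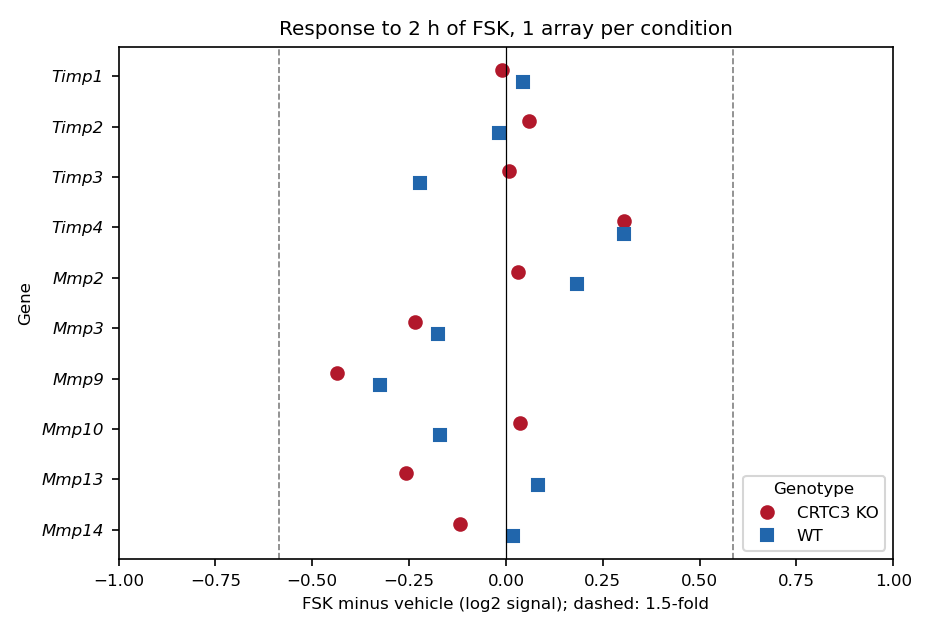
FSK minus vehicle in log2 signal (horizontal axis) for the 10 TIMP and MMP genes (rows) in CRTC3 KO cells (red circles) and WT cells (blue squares), 1 array per condition, with 1.5-fold dashed. No point reaches a dashed line, and the 2 points of *Timp4* coincide at 0.31.

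The genotype differences were larger than the FSK differences. CRTC3 KO minus WT was -1.51 with FSK and -1.45 with vehicle for *Timp1*, and -1.39 with FSK and -1.24 with vehicle for *Mmp2*. Both genes were lower in CRTC3 KO cells and passed 2-fold under both treatments. *Mmp14* differed by -0.75 with FSK and -0.61 with vehicle, which passed 1.5-fold but not 2-fold. Counted from the lowest difference among 22180 genes, *Timp1* stood at rank 68 with FSK and 40 with vehicle, *Mmp2* at rank 81 with FSK and 62 with vehicle, and *Mmp14* at rank 424 with FSK and 389 with vehicle. On the linear scale the WT signal of *Timp1* was 2.84 times the CRTC3 KO signal with FSK and 2.74 times with vehicle.

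With FSK, the CRTC3 KO signal of 2 of the 10 genes was under the WT signal by 2-fold or more, against 0.825% of all genes and 1.34% of the genes that reached the median signal. With vehicle, these same genes passed 2-fold, against 0.478% of all genes and 0.792% of those that reached the median signal. At 1.5-fold the count was 3 of 10 under each treatment, against 3.75% of all genes with FSK and 2.0% with vehicle. No gene of the 10 was 2-fold higher in CRTC3 KO cells, where 0.293% of all genes were with FSK and 0.117% with vehicle. The FSK and the vehicle comparison rest on different pairs of arrays, but whether these came from separate cultures is not stated.

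No other gene of the 10 reached 1.5-fold between genotypes. *Timp2* differed by 0.04 with FSK and -0.04 with vehicle, and *Timp3* by -0.08 with FSK and -0.31 with vehicle. *Timp4* was higher in CRTC3 KO cells by 0.28 with FSK and by 0.28 with vehicle. Among the dim genes the differences lay between -0.13 and 0.11 with FSK and between -0.25 and 0.37 with vehicle. The median over the 10 genes was -0.06 with FSK and -0.16 with vehicle, while that over all genes lay within 0.01 of 0 under each treatment. The SD between probe sets of the same gene was 0.36 for the FSK comparison and 0.29 for the vehicle comparison.

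**Figure D3:**
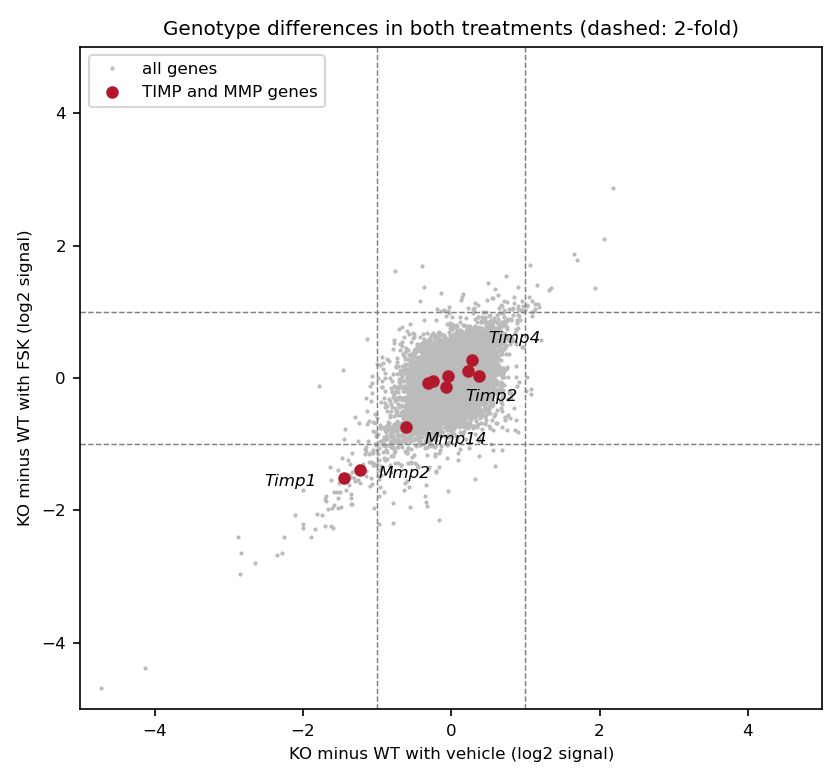
CRTC3 KO minus WT in log2 signal with vehicle (horizontal axis) and with FSK (vertical axis) for all 22180 genes (grey) and the 10 TIMP and MMP genes (red), with 2-fold dashed. *Timp1* and *Mmp2* lie past 2-fold on both axes, *Mmp14* lies between them and the cluster around 0, and *Timp4* lies slightly above 0 on both.

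Because the proteases act against their inhibitors, the difference between the log2 signals of a protease and an inhibitor gene was compared between genotypes. It describes mRNA only, and the levels of the 2 probe sets themselves are not compared. *Mmp2* relative to *Timp2* was lower in CRTC3 KO cells, at -1.43 with FSK and -1.20 with vehicle. *Mmp14* relative to *Timp2* was lower too, at -0.78 with FSK and -0.57 with vehicle. *Mmp2* relative to *Timp1* differed by 0.12 with FSK and 0.22 with vehicle, since the 2 genes were low together. *Mmp14* relative to *Timp1* was higher in CRTC3 KO cells, at 0.76 with FSK and 0.84 with vehicle. Relative to *Timp3*, *Mmp2* was lower at -1.31 with FSK and -0.93 with vehicle, and *Mmp14* at -0.67 and -0.30. For *Mmp14* the sign of the difference thus depended on the inhibitor chosen. For *Mmp2* no such change of sign is shown, as its values relative to *Timp1* were smaller than the SD between probe sets of the same gene. That SD was 0.36 for the FSK comparison and 0.29 for the vehicle comparison. Pairs with *Timp4* were not formed. Within the inhibitors, *Timp1* relative to *Timp2* differed by -1.54 with FSK and -1.41 with vehicle.

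*Timp1* had the largest range over the 4 arrays, 1.51. After each gene's own mean was taken away, the 5 genes with the nearest pattern among the 11993 that reached the median signal were *Pcolce*, an enhancer of procollagen processing, at a Euclidean distance of 0.09 in log2, *Col6a2*, a type VI collagen chain, at 0.12, *Mid1*, a ubiquitin ligase, at 0.12, *Thbs2*, a matricellular thrombospondin, at 0.13, and *Cd248*, a surface protein of stromal cells and pericytes, at 0.15. *Mmp2* stood at rank 14 with 0.20 and *Mmp14* at rank 204 with 0.81, while *Timp2* stood at rank 5119. Seen from *Mmp2*, which was added after its values were seen, the nearest were *Ctsk*, the gene of the collagen-cleaving cathepsin K, at 0.08, *Mrc2*, a collagen uptake receptor, at 0.09, *Col6a2* at 0.10, *Aebp1* at 0.11 and *Pcolce* at 0.12. These distances rest on 4 points and describe the pattern only.

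Among 16 other MMP genes measured here, 8 reached the median signal and none differed by 2-fold in any comparison. The median genotype difference over the 16 was -0.02 with FSK and -0.05 with vehicle. *Mmp12*, the gene of macrophage metalloelastase, gave 7.78 (CRTC3 KO, FSK), 8.19 (CRTC3 KO, vehicle), 7.31 (WT, FSK) and 7.23 (WT, vehicle). It was higher in CRTC3 KO cells by 0.47 with FSK and by 0.96 with vehicle, opposite to *Mmp2* and *Mmp14*. *Mmp23* was lower in CRTC3 KO cells, at -0.35 with FSK and -0.76 with vehicle, and so was *Mmp17*, a membrane-anchored MMP, at -0.62 with FSK and -0.17 with vehicle. *Mmp3*, *Mmp10* and *Mmp13* belong to a cluster of 10 neighbouring MMP genes on chromosome 9, of which 9 lay below the median signal on all 4 arrays and *Mmp12* was the exception.

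Among 18 activators, docking partners and further inhibitors of MMPs, 12 had lower CRTC3 KO signals with FSK and 14 with vehicle, of which 3 with FSK and 2 with vehicle passed 2-fold. Over all genes, 11098 with FSK and 10687 with vehicle of 22180 were lower, and 0.825% with FSK and 0.478% with vehicle passed 2-fold. The median was -0.17 with FSK and -0.15 with vehicle. *Thbs2*, whose product binds the *Mmp2* protease for uptake by cells, was lower at -1.56 with FSK and -1.30 with vehicle, and *Plaur*, the urokinase receptor, at -1.08 with FSK and -1.17 with vehicle. *Plau*, the urokinase gene, which starts plasmin-dependent MMP activation, was lower at -1.61 with FSK and -0.34 with vehicle. *Furin*, a convertase that activates the *Mmp14* proenzyme, differed by -0.12 with FSK and -0.08 with vehicle, and *Reck*, a membrane-bound MMP inhibitor, by -0.14 with FSK and -0.11 with vehicle.

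Of 15 transcription factors and cytokines known to induce MMP genes or *Timp1*, FSK left the medians at 0.05 in CRTC3 KO cells and 0.27 in WT cells, with 1 gene at least 2-fold higher in CRTC3 KO cells and 2 in WT cells, against 0.0271% of all genes in CRTC3 KO cells and 0.122% in WT cells. *Il1b*, an inducer of *Mmp3* and *Mmp9*, was higher with FSK by 1.45 in CRTC3 KO cells and by 1.37 in WT cells. *Il6*, an inducer of *Timp1*, was higher with FSK by 0.35 in CRTC3 KO cells and by 1.89 in WT cells. Between genotypes, CRTC3 KO minus WT was 1.17 with FSK and 1.09 with vehicle for *Il1b*, and -1.87 with FSK and -0.34 with vehicle for *Il6*, so the 2 cytokine genes lay on opposite sides of 0. *Il6* lay below the median signal on every array but WT with FSK, and *Il1b* did on the WT vehicle array. *Lif* and *Osm*, also of the list, differed by 0.21 and 0.05 with FSK and by 0.34 and -0.41 with vehicle. *Osm* was higher with FSK by 0.99 in CRTC3 KO cells and by 0.54 in WT cells. *Tnf*, a further cytokine inducer of *Mmp9*, was lower with FSK, at -0.42 in CRTC3 KO cells and -0.85 in WT cells. *Fos*, a subunit of AP-1, was higher by 0.45 in CRTC3 KO cells and by 0.63 in WT cells, whereas *Jun*, its partner, differed by -0.16 in CRTC3 KO cells and -0.66 in WT cells. Of the 3 genes with the AP-1 letters, the highest FSK difference over the same 2 h was 0.08, for *Mmp13* in WT cells. These 3 genes lay below the median signal on all arrays, where a difference may not be detectable. A part of AP-1 in their signals was not tested.

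Most of the listed matrix genes whose products MMPs cleave were lower in CRTC3 KO cells, as were *Timp1* and *Mmp2*, but by very different amounts. Of 16 measured, 14 had lower CRTC3 KO signals under each treatment, and 8 with FSK and 5 with vehicle passed 2-fold, against the same background. The median was -1.02 with FSK and -0.87 with vehicle, while that over all genes lay within 0.01 of 0. For the chains of fibrillar collagen, CRTC3 KO minus WT was -1.98 with FSK and -1.66 with vehicle (*Col1a1*), -2.39 with FSK and -2.26 with vehicle (*Col1a2*), and -2.07 with FSK and -2.11 with vehicle (*Col3a1*). Among the basement membrane chains, *Col4a1*, *Col4a2* and *Lamb1* differed by -1.05, -1.15 and -1.96 with FSK and by -0.97, -0.99 and -1.53 with vehicle. *Lama4* differed by -0.996 with FSK and -0.93 with vehicle, whereas *Lamc1* differed by only -0.004 with FSK and -0.02 with vehicle. Small differences were also seen for *Eln*, at -0.10 with FSK and -0.06 with vehicle. *Fn1* differed by -0.36 with FSK and -0.30 with vehicle, and *Tnc* by -0.52 with FSK and -0.56 with vehicle. *Vcan*, a large proteoglycan, differed by -2.27 with FSK and -1.59 with vehicle, and *Dcn*, a small one, by -1.18 with FSK and -0.81 with vehicle. *Bcan* and *Ncan*, proteoglycan genes of the brain matrix, were the 2 genes of the list that were higher in CRTC3 KO cells, *Bcan* by 0.77 with FSK and 0.67 with vehicle and *Ncan* by 0.42 with FSK and 0.50 with vehicle. *Acan*, a proteoglycan gene of the same family as these and *Vcan*, lay below the median signal and differed by -0.07 with FSK and -0.14 with vehicle.

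Markers of some cell types differed between genotypes as well. Over 12 markers of fibroblasts and mural cells, the mean log2 signal was 7.55 with FSK and 7.70 with vehicle in CRTC3 KO cells, against 8.81 with FSK and 8.83 with vehicle in WT cells. Of these 12, 11 were lower in CRTC3 KO cells under each treatment, 5 at least 2-fold with FSK and 4 with vehicle. Among all 22180 genes, 11098 were lower with FSK and 10687 with vehicle, and 0.825% with FSK and 0.478% with vehicle passed 2-fold. *Postn*, a fibroblast matrix gene, differed by -4.38 with FSK and -4.13 with vehicle, while *Lum* and *Rgs5* lay below the median signal on all arrays. *Acta2* and *Tagln* differed less, by -0.50 and -0.39 with FSK and by -0.24 and -0.28 with vehicle. *Rgs5* was higher, by 0.12 with FSK and 0.41 with vehicle. *Col1a1*, *Col1a2*, *Col3a1* and *Dcn* stood in this list and in that of the matrix genes. Together with *Postn*, these were the markers that passed 2-fold, *Dcn* with FSK only. Over 10 astrocyte markers the mean was 9.62 with FSK and 9.58 with vehicle in CRTC3 KO cells, against 9.10 with FSK and 9.07 with vehicle in WT cells. All 10 were higher in CRTC3 KO cells under each treatment, with *S100b* below the median signal throughout. Of all 22180 genes, 11055 were higher with FSK and 11468 with vehicle. Over 11 microglia and macrophage markers the mean was 8.91 with FSK and 8.95 with vehicle in CRTC3 KO cells, against 8.82 with FSK and 8.80 with vehicle in WT cells. Markers of endothelial cells, oligodendrocytes with precursors, and neurons had median differences of -0.27, -0.03 and 0.00 with FSK. With vehicle these medians were -0.12, -0.07 and 0.00. The part of the cell type makeup in the *Timp1*, *Mmp2* and *Mmp14* differences, and in that of *Mmp12*, was not tested.

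**Figure D4:**
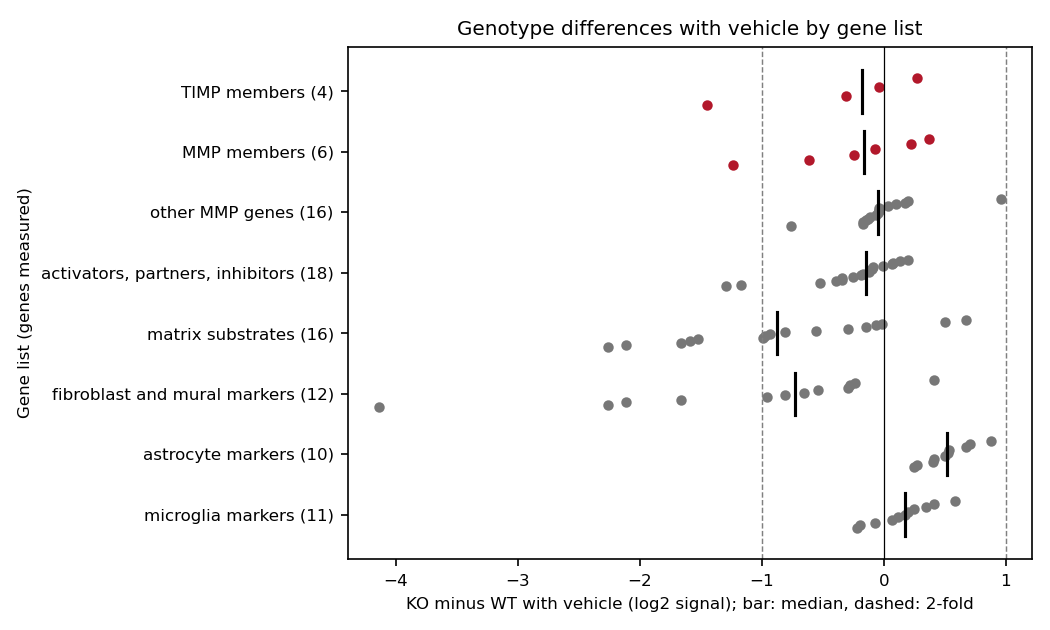
CRTC3 KO minus WT in log2 signal with vehicle (horizontal axis) for each gene of the TIMP and MMP genes (red) and of the related and marker lists (grey), with the number measured in brackets, the list median as a bar and 2-fold dashed. The matrix substrates and the fibroblast and mural markers have medians of -0.87 and -0.73, and the astrocyte markers lie above 0.

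Some of the genes share their place in the genome with another gene, which matters for probes that could read both. In the RefSeq annotation *Timp1* lies inside the span of *Syn1*, *Timp3* inside *Syn3* and *Timp4* inside *Syn2*, all synapsin genes. *Syn1* differed between CRTC3 KO and WT by less than 0.01 with FSK and by -0.06 with vehicle, and *Timp1* by -1.51 and -1.45. *Syn2* was higher in CRTC3 KO cells by 0.51 with FSK and 0.50 with vehicle, in the same direction as *Timp4*, and whether the 2 signals are separate was not tested. *Syn3* differed by 0.08 with FSK and 0.11 with vehicle. *Cep295nl*, which lies inside *Timp2*, differed by 0.00 with FSK and -0.33 with vehicle, and a partial overlap of *Mmp2* with *Gm45472* was not analysed here.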

How the data were processed

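RNA of 4 samples, 1 per condition, was hybridised to GeneChip Mouse Gene 2.0 ST arrays by the authors. The deposited values are log2 signals per probe set, which the submitters' processing notes credit to RMA in the Affymetrix Expression Console, with no version. RMA subtracts background, forces the arrays onto a shared distribution and summarises probes, so a shift common to all genes on an array is removed. The number of arrays limits the precision. The genome build behind the files is not given in the sources used here.

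Of 41345 probe sets (values 1.42 to 13.1, array medians 5.48 to 5.50), 23521 were paired with a single gene by the platform annotation, and 23328 of these identifiers were found in the RefSeq table. Per gene the probe set with the highest mean was kept, which left 22180 genes. Log2 differences were taken between arrays with Python 3.11.15, numpy 2.4.6, pandas 2.3.3 and matplotlib 3.10.9. A gene was counted at a limit of 2-fold, with 1.5-fold and 3-fold as alternatives. Other alternatives were quantile normalization, centring of each array, a floor at the median signal and averaging all probe sets of a gene. The calculation of differences and counts was checked on simulated data.

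Named were the 10 genes, each gene of the related lists that passed 2-fold in a response or a genotype difference and reached the median signal on at least 1 array, a few further examples per list, and the 5 genes nearest in pattern to the gene with the largest range. The 10 genes, the lists and the motifs were chosen with earlier results of these data known, and no list is independent support for another. Promoter windows came from RefSeq.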

Additional observations from a re-analysis of the deposited data

Results flagged for a closer look

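The FSK differences of *Plau*, the urokinase gene, had opposite signs in the 2 genotypes, at -0.98 in CRTC3 KO cells and 0.28 in WT cells, of which that in WT cells lay within the SD of 0.29 between probe sets of the same gene. It gave 6.83 with FSK and 7.81 with vehicle in CRTC3 KO cells, against 8.44 with FSK and 8.15 with vehicle in WT cells. The response in CRTC3 KO cells minus that in WT cells was -1.26 on the log2 scale. With 1 array per condition this difference was not tested.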

How the results depend on the processing

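No paired analysis was possible because each condition had 1 array, so the labels gave the conditions a single shared replicate number. The counts of TIMP and MMP genes that passed 2-fold between genotypes were 2 with FSK and 2 with vehicle, both lower in CRTC3 KO. At a 3-fold limit they were 0 with FSK and 0 with vehicle. The 2-fold counts were the same under the quantile, centring, floor and probe set mean alternatives, but these could hardly change them. Each of these genes had 1 probe set, so the probe set mean left every value as it was. The floor leaves *Timp1* and *Mmp2* unchanged and cannot widen a difference. RMA had already forced the arrays onto a shared distribution, so quantile normalization and centring had little left to change. *Timp1* lay between -1.52 and -1.49 with FSK and between -1.46 and -1.44 with vehicle over the alternatives, *Mmp2* between -1.43 and -1.37 with FSK and between -1.25 and -1.22 with vehicle, and *Mmp14* between -0.79 and -0.73 with FSK and between -0.61 and -0.59 with vehicle. With values under the median signal raised to it, every difference of *Mmp3*, *Mmp9*, *Mmp10* and *Mmp13* became 0, since these genes then sit at the floor. In 3 cases, *Mmp9* with FSK in both genotypes and *Mmp13* between genotypes with vehicle, this shift exceeded the SD between probe sets of the same gene in that comparison. No difference between cultures can be told apart from a difference between single arrays, and low signal limits what can be seen of *Mmp3*, *Mmp9*, *Mmp10* and *Mmp13*.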
